A study of Mus musculus with 4 samples.

Results

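The 8 genes described here encode proteins that shorten the life of messenger RNA or keep lymphocytes at rest. They are Zfp36, Zfp36l1 and Zfp36l2 (the ZFP36 family), Btg1 and Btg2 (the BTG family), Zc3h12a (Regnase-1), and Rc3h1 and Rc3h2 (Roquin-1 and Roquin-2). They were selected by gene symbol. All 8 were found, each on 1 row of the 23700 rows in the deposited tables. All 8 also passed the filter on low values and are among the 11074 rows tested, so every member is accounted for.

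The RNA came from helper T cells (CD4 T cells) of the spleens of C57BL/6 mice aged 43 weeks. Group WT holds 2 libraries with the genotype wild type (WT 1 and WT 2), and group KO holds 2 with the genotype RIPK1-KO (KO 1 and KO 2), which the series describes as a deletion in T cells only. All 4 library titles end in Ctrl, a term that is not explained in the sources used here, and neither the Cre driver nor the deleted part of Ripk1 is given there. Whether both libraries of a group stem from different animals is not stated, and p-values therefore cover only how these libraries vary, which may be technical variation. Values are FPKM, fragment counts scaled to transcript length and to the mapped fragments of the library, which allow levels of different genes to be set side by side. Log2 changes are KO minus WT on the log2(FPKM + 1) scale, on which changes of low genes come out too small, and a gene is said to have risen or fallen where its adjusted p in limma was under 0.05.

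Proteins of the ZFP36 family carry zinc fingers that bind AU-rich elements in messenger RNA and recruit the CCR4-NOT complex, which removes the poly(A) tail. BTG1 and BTG2 bind the deadenylase subunits of that complex and are known to keep naive T cells quiescent. Regnase-1 is an endonuclease that cuts messenger RNA at stem-loops, Roquin-1 and Roquin-2 bind stem-loops and recruit deadenylases, and the protease MALT1 cleaves Regnase-1 and Roquin after T cell receptor signals. Zfp36 and Btg2 are also early response genes, transcribed within minutes of a stimulus.

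Ripk1 itself measured 5.61 (WT 1), 5.60 (WT 2), 10.4 (KO 1) and 9.54 FPKM (KO 2; limma adjusted p = 0.0262). Its log2 change of 0.73 was 0.35 above that of the median row. With the deleted part not given, values per gene cannot check the label. Directions below are those of the libraries labelled KO. Of all rows tested 25.6% rose and 1% fell, and the median row changed by 0.38 on the log2 scale. After trimmed-mean scaling, which centres the bulk of the rows, 4.68% rose and 5.2% fell and the median was -0.01. Estimated depth was 17200000 to 21400000 fragments per library. The T cell markers (7 rows, with Cd3g, Cd2 and Lck the highest) summed to 952 and 1203 FPKM in WT and 1536 and 1408 FPKM in KO. A change above 0 was seen in 6 of these 7 rows. Cd3d was lower, at 185 and 238 FPKM in WT and 175 and 169 FPKM in KO. The 8 B cell markers summed to 6.89 and 7.22 FPKM in WT and 14.8 and 14.0 FPKM in KO. Most of the difference was Cd22 (mean 1.77 in WT and 4.67 FPKM in KO) and Cd79b (0.852 and 3.395 FPKM). Only Pax5 (0.208 in WT and 0.108 FPKM in KO) and Ebf1 (0.302 and 0.242 FPKM) had lower means in KO. The 8 myeloid markers summed to 4.29 and 6.94 FPKM in WT and 8.53 and 11.2 FPKM in KO, with Cd14 at 0 in all but KO 1. Lyz2 was higher in KO (mean 0.847 in WT and 3.68 FPKM in KO), and Tyrobp was not (2.51 and 2.29 FPKM). The 4 NK cell markers summed to 11.3 and 10.1 FPKM in WT and 26.2 and 23.4 FPKM in KO. Nearly all of that was Nkg7 (10.2 and 9.38 FPKM in WT, 25.4 and 22.7 FPKM in KO). Klrb1c had a lower mean in KO (0.767 in WT and 0.520 FPKM in KO). The 4 plasma cell markers summed to 14.9 and 21.2 FPKM in WT and 29.98 and 33.8 FPKM in KO. Most of that was Xbp1 and Jchain (listed as Igj), and Sdc1 had a lower mean in KO (0.893 in WT and 0.649 FPKM in KO). The 4 dendritic cell markers summed to 33.9 and 27.4 FPKM in WT and 24.5 and 25.5 FPKM in KO. Nearly all of that was Xcr1 and Siglech, and Zbtb46 had a higher mean in KO (0.103 in WT and 0.415 FPKM in KO). The 10 rows of erythroid markers, which stand for 8 genes, summed to 6.39 and 99.2 FPKM in WT and 396 and 321 FPKM in KO. Nearly all of that was Hbb-b2 and Hba-a2, and Hba-a2 entered the sum on 2 rows with similar values.

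Upstream sequence is shown for the 3 members that mark the main patterns below: Zfp36, the only member that rose, and Btg1 and Btg2, whose libraries differed more within a group than the group means did. Each run is the 250 bases before the annotated start site, 5′ to 3′ on the gene's strand, from RefSeq on GRCm38.p6, a later build than the mm8 named for the files. RefSeq windows were matched for 7 of the 8 members. The Zfp36 window lies at chr7:28379229-28379478 (minus strand), that of Btg1 at chr10:96616751-96617000 (plus strand) and that of Btg2 at chr1:134079156-134079405 (minus strand). Capitals mark a CArG box in Zfp36 (the motif of serum response factor), the short CRE TGACG read on the opposite strand in Btg1, and a full CRE TGACGTCA (the cyclic AMP response element) in Btg2.
Zfp36: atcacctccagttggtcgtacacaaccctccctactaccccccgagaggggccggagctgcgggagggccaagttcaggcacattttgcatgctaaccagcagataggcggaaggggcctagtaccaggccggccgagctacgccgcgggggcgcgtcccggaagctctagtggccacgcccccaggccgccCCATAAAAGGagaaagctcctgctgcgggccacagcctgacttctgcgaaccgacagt
Btg1: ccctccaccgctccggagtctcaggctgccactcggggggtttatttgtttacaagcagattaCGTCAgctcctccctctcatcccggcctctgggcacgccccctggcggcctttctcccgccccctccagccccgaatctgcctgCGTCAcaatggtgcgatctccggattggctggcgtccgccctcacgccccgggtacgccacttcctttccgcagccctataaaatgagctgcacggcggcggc
Btg2: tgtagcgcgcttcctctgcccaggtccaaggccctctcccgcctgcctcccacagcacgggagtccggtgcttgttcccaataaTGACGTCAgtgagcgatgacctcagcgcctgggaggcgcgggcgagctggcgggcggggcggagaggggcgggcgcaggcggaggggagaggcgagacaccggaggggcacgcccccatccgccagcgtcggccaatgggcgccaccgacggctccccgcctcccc

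Both strands of these 250-base windows were searched. Positions are counted from the start site. The CArG box lies at -58 to -49 in the Zfp36 window and was in no other member window; 1.47% of 32817 RefSeq windows of the same length hold one. The full CRE lies at -166 to -159 in the Btg2 window and was in no other member window, against 1.55% of all windows. The short CRE, which is part of the full one, lies at -187 to -183 and -103 to -99 in Btg1; it was in the Btg1 and Btg2 windows and in 17.7% of all windows. The GC box GGGCGG was in 5 of 7 member windows and 32.7% of all, and the CCAAT box in 3 of 7 and 33.8%. The GC box of Zfp36 is read on the opposite strand, at -63 to -58, and shares the base at -58 with the CArG box. The AP-1 motif TGANTCA was in the Zfp36l1 and Rc3h1 windows and in 6.75% of all. These matches describe letters only, and no binding was measured.

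The members spanned a wide range of levels. Zfp36l2 was the highest in all 4 libraries, and 1.46% of rows tested had a higher mean FPKM. Btg1 and Zfp36 came next (2.08% and 2.16% of rows above them), then Zfp36l1 (4.93%) and Btg2 (7.65%). Zc3h12a was lower (25.3% of rows above it), and Rc3h2 and Rc3h1 lay near the middle of the rows tested (54.7% and 60.0%). The order was the same in WT 1 and WT 2, and in KO 1 and KO 2 it differed from that only in Zfp36 standing above Btg1. Neighbours in this order overlapped over the libraries of a group from Zfp36l2 down to the third gene, and again for Zfp36l1 and Btg2. Zfp36l1 lay wholly below the third gene in both groups (Zfp36 in WT, Btg1 in KO). Rc3h2 and Rc3h1 overlapped in KO and not in WT. Btg2 and Zc3h12a did not overlap in either group, nor did Zc3h12a and Rc3h2. With transcript lengths of 2743 to 11006 nt these values rested on roughly 490 fragments (Zc3h12a in WT 1) to 25900 fragments (Btg1 in WT 2).

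**Figure D1:**
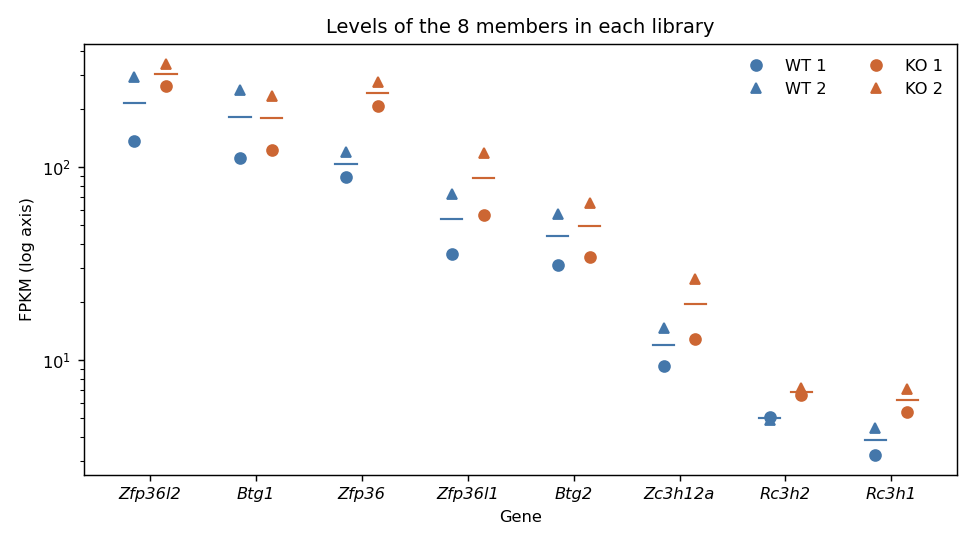
FPKM (log axis) of the 8 members, ordered by their WT mean, with 1 symbol per library (circles library 1, triangles library 2; blue WT, orange KO) and a line at each group mean. Triangles lie above circles in both groups for every member except Rc3h2, whose 2 WT symbols are reversed, and KO lies wholly above WT for Zfp36, Rc3h1 and Rc3h2.

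Of the 8 members 1, Zfp36, rose in the libraries labelled KO and 0 fell, below the 25.6% of all rows that rose (limma; at an unadjusted p under 0.05 the counts were 2 and 0, against 39.5% of all rows higher and 2.84% lower). After trimmed-mean scaling, with 4.68% of all rows rising, and after removal of the length trend, with 2.48% rising and 1.47% falling, the counts were 0 and 0 (limma; 1 member was higher at an unadjusted p under 0.05 in each, against 16.6% and 15.6% of all rows). With the replicate number as a block 3 rose (Zfp36, Rc3h1 and Zc3h12a) and 0 fell, where 35.3% of all rows rose and 2.08% fell. The median change over the 8 members was 0.58, against 0.38 over all rows tested. On leaving out a library, the members' median minus that of all rows ran from -0.15 to 0.43, so its sign was not stable. With the length trend removed the medians were 0.047 and 0.012. In 3 members (Zfp36, Rc3h1 and Rc3h2) both KO libraries lay above both WT libraries, as in 58.5% of all rows, and in 0 members both lay below, as in 12.1% of all rows.

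Zfp36 encodes tristetraprolin, the founding member of its family, which limits TNF by destabilising its messenger. It measured 88.7 (WT 1), 120 (WT 2), 208 (KO 1) and 278 FPKM (KO 2). Both KO libraries were well above both WT libraries. The mean rose 2.32-fold, from 104 ± 22.3 to 243 ± 49.5 FPKM (SD, n = 2 and 2). The log2 change was 1.21 ± 0.27 (SE, limma adjusted p = 0.0242). That is 0.83 more than the median row. The call was lost after trimmed-mean scaling (log2 change 0.73, limma adjusted p = 0.0703), after quantile normalization (1.01, limma adjusted p = 0.0623), with the trend on transcript length removed (0.86, limma adjusted p = 0.0662) and with no filter (1.21, limma adjusted p = 0.0963). It was also lost without WT 1 (log2 change 0.99), KO 1 (1.42) or KO 2 (1.001), with limma adjusted p of 0.0987, 0.0585 and 0.168. It was kept without WT 2 (1.43, limma adjusted p = 0.042), and the change was positive in all 14 alternatives. In bulk RNA, more cells of a type and more RNA per cell cannot be told apart, and the part of the other cell types whose marker sums are given above was not tested.

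Zfp36l1, a paralog that acts in lymphocyte development, measured 35.6 (WT 1), 72.5 (WT 2), 56.6 (KO 1) and 118 FPKM (KO 2). The groups overlapped, and the libraries of each group differed by more than the group means did. Its log2 change of 0.68 ± 0.44 did not pass (SE, limma adjusted p = 0.277). It ran from 0.15 without KO 2 to 1.202 without KO 1, passing in neither, and was 0.20 after trimmed-mean scaling. Zfp36l2, the most abundant member, measured 136 (WT 1), 293 (WT 2), 263 (KO 1) and 345 FPKM (KO 2). WT 1 was the low library and the other 3 lay together, so that without WT 1 the log2 change fell to 0.04 from 0.59 ± 0.39 (SE, limma adjusted p = 0.279). Without WT 2 it was 1.14 and passed (limma adjusted p = 0.0441), and after trimmed-mean scaling it was 0.11.

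The BTG genes overlapped between the groups. Btg1 measured 112 (WT 1), 252 (WT 2), 124 (KO 1) and 235 FPKM (KO 2) (log2 change 0.02, SE 0.46, limma adjusted p = 0.977). Library 1 was low and library 2 high in both groups, and the group ranges lay almost on top of each other. Btg2 measured 31.0 (WT 1), 57.1 (WT 2), 34.3 (KO 1) and 65.0 FPKM (KO 2) (log2 change 0.16, SE 0.39, limma adjusted p = 0.771), with the same order of libraries. Relative to the median row the changes of Btg1 and Btg2 were -0.36 and -0.22, and both changes were negative after trimmed-mean scaling (-0.46 and -0.31), where neither passed.

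Zc3h12a, which encodes the endonuclease Regnase-1, measured 9.25 (WT 1), 14.6 (WT 2), 12.9 (KO 1) and 26.3 FPKM (KO 2). The groups overlapped, since KO 1 lay below WT 2, and KO 2 stood above the rest. Its log2 change of 0.62 ± 0.36 did not pass (SE, limma adjusted p = 0.222). Without KO 1 it was 1.11 and passed (limma adjusted p = 0.0228), without KO 2 it was 0.14 (0.806), without WT 1 it was 0.32 (0.655), and after trimmed-mean scaling it was 0.17 (0.751).

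The Roquin genes were the lowest members. Rc3h1, the Roquin whose sanroque mutation causes a lupus-like disease in mice, measured 3.21 (WT 1), 4.45 (WT 2), 5.36 (KO 1) and 7.03 FPKM (KO 2). Both KO libraries were above both WT libraries, yet the log2 change of 0.58 ± 0.21 did not pass (SE, limma adjusted p = 0.0873). Rc3h2 measured 5.07 (WT 1), 4.89 (WT 2), 6.55 (KO 1) and 7.17 FPKM (KO 2) (log2 change 0.39, SE 0.17, limma adjusted p = 0.124). It varied least between the libraries of a group. Relative to the median row the changes of Rc3h1 and Rc3h2 were 0.20 and 0.01. Their transcripts are the longest of the members (11006 and 8948 nt), and with the length trend removed the changes were -0.085 and -0.25.

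**Figure D2:**
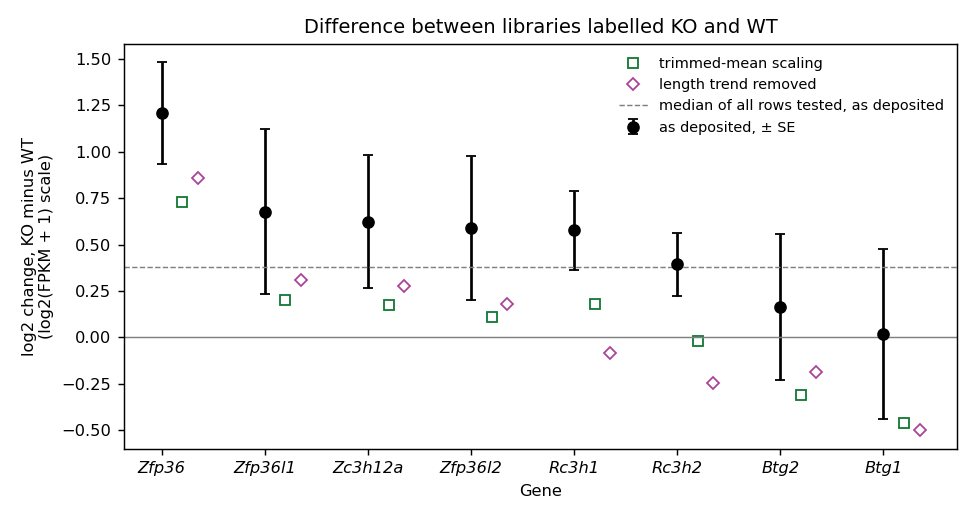
Log2 change (KO minus WT, log2(FPKM + 1) scale) of each member as deposited (black, ± SE), after trimmed-mean scaling (squares) and with the length trend removed (diamonds), with the median of all rows tested as a dashed line at 0.38. Zfp36 stands highest under all 3, and Btg1, Btg2, Rc3h1 and Rc3h2 change sign between them.

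Ratios of 2 members within a library do not depend on how that library was scaled. Zfp36l1 stood at 0.261 and 0.248 of Zfp36l2 in WT 1 and WT 2 and at 0.215 and 0.343 in KO 1 and KO 2, with overlapping groups. Zfp36 stood at 0.65 and 0.411 of Zfp36l2 in WT and at 0.789 and 0.805 in KO. Btg2 stood at 0.277 and 0.227 of Btg1 in WT and at 0.278 and 0.277 in KO, close to constant in 3 libraries and lower in WT 2. Rc3h1 stood at 0.633 and 0.911 of Rc3h2 in WT and at 0.818 and 0.980 in KO, again overlapping. None of these 4 planned comparisons could pass: with 2 libraries against 2 the smallest two-sided exact permutation p is 0.333, which the ratios of Zfp36 to Zfp36l2 and of Btg2 to Btg1 reached (0.667 adjusted over the 4). The ratio of Zfp36 to Btg1, chosen after the values were seen, was 0.791 and 0.477 in WT and 1.68 and 1.18 in KO, which is the change in order given above.

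In most members the libraries numbered 2 were above those numbered 1, in both groups. WT 2 was 2.04 times WT 1 for Zfp36l1, 2.25 times for Btg1, 1.84 times for Btg2 and 1.58 times for Zc3h12a. KO 2 was 2.09, 1.90, 1.90 and 2.04 times KO 1 for the same genes. These 4 of 8 members were higher in library 2 by at least 0.5 on the log2(FPKM + 1) scale in both groups, as were 2.72% of all rows tested (301 of 11074), and 0 members and 0.569% of all rows were lower by as much. This cutoff was chosen after the values were seen. Zfp36 was 1.36 and 1.34 times as high in library 2, Zfp36l2 2.15 and 1.31 times, Rc3h1 1.39 and 1.31 times, and Rc3h2 0.965 and 1.10 times, so these stayed below the cutoff in at least 1 group. The labels do not say what a library number stands for.

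Other genes moved in the same way between the libraries. Of 14 immediate early genes, the first to be transcribed after a stimulus, 10 passed the same cutoff in both groups. Junb, the most abundant of them, measured 377 (WT 1), 639 (WT 2), 366 (KO 1) and 621 FPKM (KO 2). Of the other family members Tob1 and Tob2, antiproliferative relatives of the BTG genes, passed it too. Tob1 measured 14.8 (WT 1), 32.3 (WT 2), 15.2 (KO 1) and 40.3 FPKM (KO 2), and Tob2 measured 16.7 (WT 1), 33.2 (WT 2), 18.3 (KO 1) and 43.6 FPKM (KO 2). Of 10 published target transcripts 5 passed it (Rel, Nfkbid, Nfkbiz, Ctla4 and Irf4). None of the 11 genes of the CCR4-NOT complex passed it. Of the cell type markers the 4 rows of neutrophil genes summed to 4.22 and 38.5 FPKM in WT 1 and WT 2 and to 16.0 and 44.9 FPKM in KO 1 and KO 2, nearly all of it S100a8 and S100a9, while Mpo and Elane stayed under 0.4 FPKM. Their part in the difference between libraries was not tested.

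**Figure D3:**
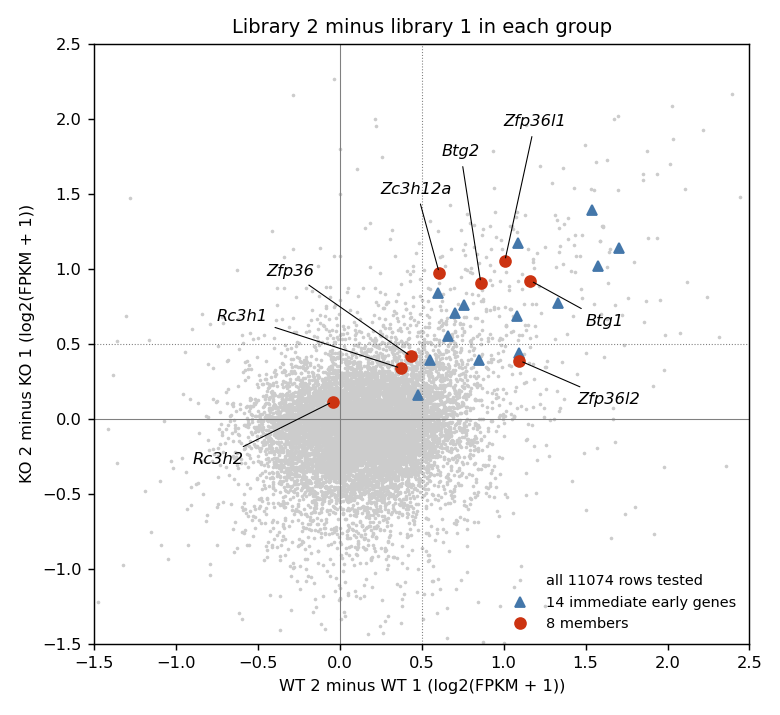
Difference between library 2 and library 1 on the log2(FPKM + 1) scale in WT (horizontal axis) and in KO (vertical axis) for all 11074 rows tested (grey; 109 lie outside the axes), 14 immediate early genes (blue triangles) and the 8 members (red), with dotted lines at 0.5. Zfp36l1, Btg1, Btg2 and Zc3h12a lie beyond both dotted lines, and Rc3h2 lies near the origin.

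The rows whose values ran most like a member's were found by the distance between log2(FPKM + 1) values centred over the 4 libraries. With only 4 points, many rows come close. Jazf1 (distance 0.0139) and R3hdm1 (0.0403) were nearest to Zfp36, Gadd45a (0.122) and Pnrc1 (0.140) to Btg1, and Rrad (0.0651) and Nkrf (0.0885) to Btg2. Trp53inp2 (0.116) and Spty2d1 (0.144) were nearest to Zfp36l1, and Herpud1 (0.116) and Hspa5 (0.128) to Zfp36l2. Jazf1 was low (0.274 and 0.729 FPKM in WT, 1.96 and 2.999 FPKM in KO). So was Trp53inp2 (0.312 and 1.91 FPKM in WT, 1.12 and 3.65 FPKM in KO). On this scale changes of such low genes come out too small, so their fold changes differ from those of the members. Arrdc3 (0.0471) and Klf11 (0.128) were nearest to Zc3h12a, Phtf2 (0.0211) and Tet3 (0.0394) to Rc3h1, and Tmem111 (0.0182) and Brwd1 (0.0290) to Rc3h2.

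Among paralogs of the members, Zc3h12d, a relative of Regnase-1, rose. It measured 3.94 (WT 1), 4.77 (WT 2), 14.2 (KO 1) and 11.6 FPKM (KO 2), with no overlap, a 2.97-fold rise (log2 change 1.38 ± 0.19, SE, limma adjusted p = 0.0129). It passed also after trimmed-mean scaling (limma adjusted p = 0.0331) and with the length trend removed (0.0462), and not without WT 1 (0.0842), with no filter (0.0858) or after quantile normalization (0.0543). Zfp36l3, Btg3, Btg4, Zc3h12b and Zc3h12c were under 1 FPKM in all 4 libraries and were not tested.

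Genes of the decay machinery and of other proteins that bind messengers are set here against all rows, where 25.6% rose and the median change was 0.38. The share that rose was below that in the exosome list and among the 4 other deadenylase genes, and above it in the rest. Of 11 CCR4-NOT genes 5 rose (Cnot1, Cnot3, Cnot6, Cnot6l and Cnot9) and 0 fell, with a median change of 0.53. Cnot6, a catalytic deadenylase, rose 2.60-fold, from 6.71 and 5.81 FPKM to 17.1 and 15.5 FPKM (limma adjusted p = 0.0131), and Cnot1, the scaffold of the complex, rose 2.33-fold (limma adjusted p = 0.0139). Of 4 other deadenylase genes 1, Pan2, rose. Of 10 genes for decapping and decay from the 5′ end 4 rose (Dcp1a, Edc4, Patl1 and Xrn1), with the exonuclease gene Xrn1 highest by fold (2.65-fold, limma adjusted p = 0.0146). Of 10 genes of nonsense-mediated decay 6 rose, with Smg6, an endonuclease, 2.30-fold higher (limma adjusted p = 0.0151). Of 15 genes of the exosome, which degrades from the 3′ end, and of its SKI cofactor 3 rose (Exosc10, Skiv2l and Ttc37), with a median change of 0.19. Of 13 genes for other proteins that bind messenger tails 7 rose, with Ago2 2.87-fold (listed as Eif2c2; limma adjusted p = 0.0131) and Khsrp 2.22-fold higher (limma adjusted p = 0.015). After trimmed-mean scaling, with 4.68% of all rows rising, 1 CCR4-NOT gene (Cnot6) and 1 of these 13 (Ago2) rose, and 0 in the remaining lists of this paragraph. With the length trend removed 0 rose in each, against 2.48% of all rows.

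The share of rows that rose grew with transcript length. Across rows tested, the median change was 0.12 in the 2721 rows with the shortest transcripts (up to 2035 nt) and 0.59 in the 2717 with the longest (from 4612 nt), and 11.9% and 43.4% of them rose. The lists did not all follow that order: published targets had the shortest median length (1986 nt) and the highest median change (1.35), and the quiescence genes had the longest (6064 nt) and a median change of 0.41. In all, 43 of the 112 tested genes on the 11 lists beside the members rose, where 25.6% of all rows did. Of these 43, 5 passed after trimmed-mean scaling (Cnot6, Eif2c2, Tnf, Tnfrsf4 and Zc3h12d) and 3 with the length trend removed (Tnf, Tnfrsf4 and Zc3h12d). After quantile normalization 1 passed (Tnfrsf4), and with no filter 0 did (limma). With no filter more list genes than the 112 were tested. The lists that grew were other family members (7 in place of 3), published targets (12 in place of 10) and other quiescence genes (11 in place of 10). At an unadjusted p under 0.05 in limma 58 of all list genes tested with no filter were higher, against 22.9% of all rows. The shares of all rows that rose were 4.68% after trimmed-mean scaling and 2.48% with the length trend removed. After trimmed-mean scaling 2 of the 112 fell, the exosome genes Exosc2 and Exosc6, where 5.2% of all rows fell.

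Of 12 genes that act on the members, 6 rose, where 25.6% of all rows did. Malt1, the protease that cleaves Regnase-1 and Roquin, measured 14.5 (WT 1), 18.0 (WT 2), 30.9 (KO 1) and 38.3 FPKM (KO 2) (2.13-fold, limma adjusted p = 0.0208). Mapkapk2, the kinase that phosphorylates and inactivates tristetraprolin, rose 2.27-fold (limma adjusted p = 0.0212). Dusp1, the phosphatase that opposes that pathway, measured 81.7 (WT 1), 149 (WT 2), 158 (KO 1) and 273 FPKM (KO 2) and did not pass, though both KO libraries were above both WT libraries (limma adjusted p = 0.12). After trimmed-mean scaling 0 of the 12 passed in limma, where 4.68% of all rows rose (5 of the 12 were higher at an unadjusted p under 0.05, against 16.6% of all rows).

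Of 10 tested transcripts that are published targets of these proteins, 6 rose and 0 fell, with a median change of 1.35. Of all rows 25.6% rose and 1% fell, with a median change of 0.38. The risen targets were Tnf (2.94-fold, limma adjusted p = 0.0131), Tnfrsf4, Icos, Ctla4, Ifng and Rel. This list was chosen with earlier results of these data known. Tnf, Tnfrsf4, Icos and Ctla4 had already been described in these data, so the higher share and median are no independent support. Only Tnf and Tnfrsf4 passed after trimmed-mean scaling too, where 4.68% of all rows rose. Icos, the costimulator that Roquin-1 restrains, rose 3.38-fold, from 6.76 and 16.0 FPKM to 43.4 and 33.6 FPKM (limma adjusted p = 0.0212). Rel, an NF-kB subunit, measured 3.01 (WT 1), 4.89 (WT 2), 7.57 (KO 1) and 14.6 FPKM (KO 2) (limma adjusted p = 0.0340). Ctla4 measured 11.3 (WT 1), 51.1 (WT 2), 95.5 (KO 1) and 142 FPKM (KO 2) (limma adjusted p = 0.0408). Nfkbid and Nfkbiz, targets of Regnase-1, did not pass (limma adjusted p = 0.232 and 0.357). Nfkbiz measured 15.3 (WT 1), 39.7 (WT 2), 25.1 (KO 1) and 65.9 FPKM (KO 2). Irf4, a transcription factor of activated T cells, measured 1.04 (WT 1), 5.39 (WT 2), 6.94 (KO 1) and 16.4 FPKM (KO 2) and did not pass (limma adjusted p = 0.0659). Il2 stood between 0.844 and 1.32 FPKM in all libraries, and Csf2 and Il6 were too low to be tested. Levels of messenger cannot show how fast it decays, and decay was not measured.

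Of 10 other tested genes tied to quiescence 3 rose and 0 fell, and of 14 immediate early genes 1 rose and 0 fell (limma; 25.6% of all rows rose). The risen genes were Foxo3 (limma adjusted p = 0.0225), Tsc2 (0.0287) and Runx1 (0.044), all at low levels, and Egr2 (0.041). None of these 4 passed after trimmed-mean scaling. Klf2, which keeps T cells in circulation and at rest, measured 60.2 (WT 1), 137 (WT 2), 72.6 (KO 1) and 94.0 FPKM (KO 2), with overlapping groups.

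**Figure D4:**
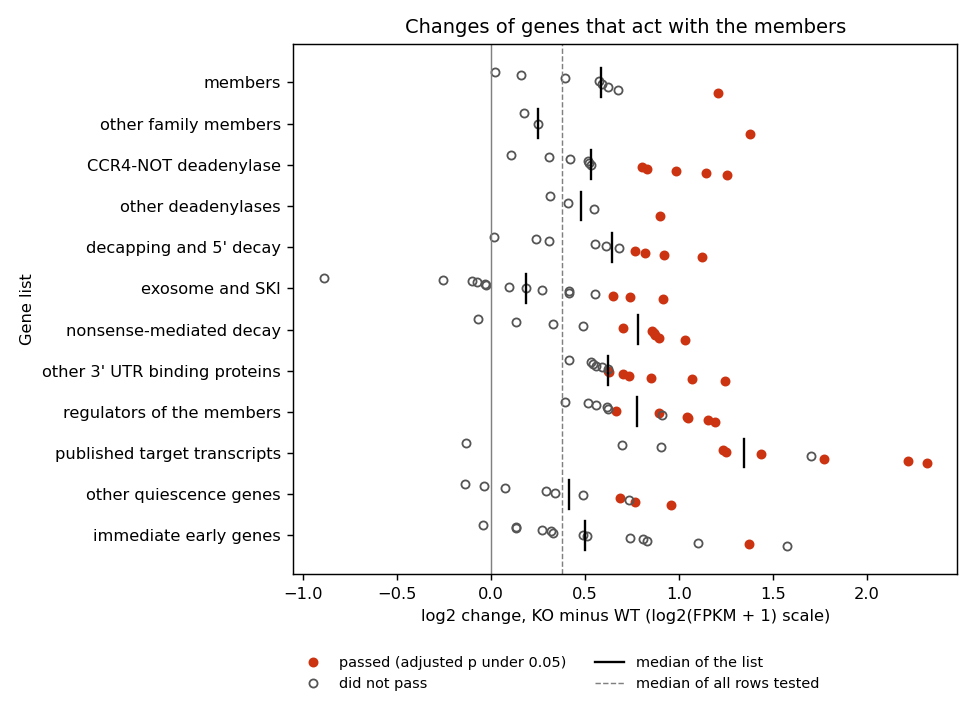
Log2 change (KO minus WT, log2(FPKM + 1) scale, as deposited) of each tested gene on 12 lists, filled where it passed in limma, with the list median (black line), 0 (grey) and the median of all rows tested (dashed, 0.38). Published target transcripts have the highest list median, 1.35, and the exosome list the lowest, 0.19. The lists were chosen with earlier results of these data known.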

How the data were processed

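Each library has its own table of FPKM values by gene symbol, as deposited by the authors. Bowtie 0.12.2 and the build mm8 are named in the submitters' processing notes; for the program behind the FPKM values, none is named in the labels. A NEBNext Ultra kit was used on 200 ng of RNA, per the labels' protocols.

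Log2(FPKM + 1) values were tested for rows that reached 1 FPKM in 2 or more of the 4 libraries, each row on its own, with limma 3.58.1 (intensity trend, genotype only, two-sided) in R 4.3.3, with Benjamini-Hochberg adjustment over the 11074 rows. Folds are ratios of mean FPKM. The procedure was also run on simulated data with independent noise and with changes drawn at random in both directions. In these data most called changes went up, so that run does not vouch for the calls made here. Depth was estimated from low values of genes with 1 transcript, taking fragments of 200 nt; 66.9% to 70.2% of values fell within 5% of a whole fragment. Fragments were not recovered for nearly all rows, so no count test was run. Lengths are those of the longest GENCODE M21 transcript. Of 184 list symbols 8 matched through a synonym and 3 did not match. Exons of Zfp36, Zfp36l1 and Zfp36l2 overlap an annotated gene on the opposite strand; no strand setting is given in the sources used here, so such reads may be included. Scripts ran in Python 3.11.15.

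The 8 members and all lists were chosen with earlier results of these data known. Named were all members, Ripk1, the paralogs, the published targets, up to 3 list genes by unadjusted p and 2 by level. Also named were up to 3 markers per cell type by level, and some markers that went the other way or stayed low. The 2 nearest rows per member were named too, passing over small RNA, ribosomal protein and predicted genes and symbols shaped like clone names. Tnf, Tnfrsf4, Icos, Ctla4 and the erythroid rows had already been described in these data and are no independent support. Alternatives were each library left out, a replicate block, pseudocounts of 0.1 and 5, no filter or one at 5 FPKM, quantile normalization, trimmed-mean scaling and no trend; removal of the length trend, scaling with the block, and a pseudocount of 1 for ratios were added after seeing the data.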

Additional observations from a re-analysis of the deposited data

How the results depend on the processing

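Settings were changed 1 at a time, except for trimmed-mean scaling together with a block (limma throughout). The number of rows that rose, 2832 as deposited, was 3 with no filter, 151 after quantile normalization, 518 after trimmed-mean scaling, 1179 after that scaling with a block, 270 with the length trend removed, and 9 to 2189 on leaving out a library, the 9 being without WT 1. The number that fell, 111, was 0, 69, 576 and 1402 in the first 4 of these, 230 with the replicate block, and 0 to 123 on leaving out a library. The number of members that rose, 1, was 0 with no filter, after quantile normalization, after trimmed-mean scaling and with the length trend removed (1 at an unadjusted p under 0.05 in each), 3 with the replicate block, and 0 to 2 on leaving out a library (limma); 0 fell in any setting, 1 at an unadjusted p under 0.05 after trimmed-mean scaling with a block. Of the other list genes 43 rose, against 0 with no filter, 1, 5, 23 and 3 in the settings as ordered above, and 0 to 42 on leaving out a library; 0 fell, against 1 with the replicate block, 2 after trimmed-mean scaling with or without a block, and 0 to 1 on leaving out a library.

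With the replicate number as a block, Rc3h1 (limma adjusted p = 0.0237) and Zc3h12a (0.0427) passed beside Zfp36 (0.00661). The differences between library 2 and library 1 correlated at 0.11 between the groups across 11074 rows; with 2 pairs and no label for the number, the numbers were not taken to pair the libraries.

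The change of Btg1 (0.02) turned to -0.11 after quantile normalization, -0.46 after trimmed-mean scaling with or without the block, -0.50 with the length trend removed, and ran from -0.56 to 0.60 on leaving out a library. That of Btg2 (0.16) turned to -0.12, -0.31 and -0.18, and ran from -0.29 to 0.61. That of Rc3h2 turned to -0.073, -0.018 and -0.25, and that of Rc3h1 to -0.085 with the length trend removed. Those of Tob1 turned to -0.18, -0.28 and -0.13 and of Tob2 to -0.10, -0.21 and -0.21, and ran from -0.50 to 0.85 and -0.35 to 0.86 on leaving out a library. The log2 ratio of Btg2 to Btg1 differed between groups by 0.15 and by -0.014 after quantile normalization; on leaving out a library it ran from 0.00 to 0.29, that of Zfp36l1 to Zfp36l2 from -0.24 to 0.43, that of Zfp36 to Zfp36l2 from 0.29 to 0.96, and that of Rc3h1 to Rc3h2 from -0.02 to 0.50. The cause of these shifts was not tested. How far depth limits these results was not tested.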
